A study of Homo sapiens with 6 samples.

Results

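eIF4B cross-linking was compared between DoHH-2 and GM01953 for 150 coding genes whose share of the cross-linked cDNAs was higher in DoHH-2. DoHH-2 is a tumour cell line derived from diffuse large B-cell lymphoma (DLBCL), and GM01953 is a non-tumour B-cell line that serves as the control. The lines come from different people and are not isogenic. Both were irradiated with UVC, which joins proteins to the RNA they touch. The RNA was then cut with RNase I and recovered with an antibody against eIF4B. In iCLIP (individual-nucleotide cross-linking and immunoprecipitation), the base where reverse transcription stopped gives the cross-link position, and the unit is the number of cDNAs that stopped there. The study had 4 replicates of DoHH-2 and 2 of GM01953, but the tables hold 1 pooled value per position and cell line. Therefore no SD and no test between the lines can be given, and intervals below cover counting error only.

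The members were found in 4 steps. Counts were summed per gene and divided by the total of the cell line, which gives a rate in counts per 1000000 counts (CPM). Protein-coding genes with at least 200 counts at 20 or more positions in DoHH-2 were eligible. Histone, ribosomal protein, mitochondrial, immunoglobulin and HLA genes were left out, and 1861 genes remained. The members are the 150 genes with the highest ratio of the DoHH-2 rate to the GM01953 rate, after 10 CPM was added to both. They were thus selected on measured values, the gene counts of both lines. They are 8.06% of the eligible genes, a share that the rule itself fixes. Because the ratio chose the members, it is given here as a description with no test. The intervals of the members' ratios do not allow for this choice, which favours high values.

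eIF4B is a translation initiation factor that stimulates the RNA helicase eIF4A, which unwinds the 5′ end of mRNAs so that ribosomes can load. Germinal centre B cells, from which many B-cell lymphomas arise, are known for surface proteins such as CD10 and CD38 and for transcription factors that hold back the plasma cell programme. Cross-linking depends both on how much of an mRNA a cell holds and on how often the protein touches each copy. These cannot be told apart in the counts.

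The sequences around the strongest cross-link positions are examples of single positions and do not describe the members as a set. They are shown for the 12 members with the highest DoHH-2 count at a single position, leaving out the chromosome that is not reported here. Each line gives 25 nt of the transcribed strand (GRCh38, 5′ to 3′, T for U), in which the capital is the cross-link position.
JCHAIN: acctgctacactTatgacagaaaca
EIF3B: aaactcaaaaatGtcatccacaaga
HMGB1: cctggtggtattTtcaatagccact
TOP2B: ttatgctcttttTtactcattgaaa
EIF4A3: tcttttcttattTacatgtaaataa
NUCB2: ctcaacatctatTtcatctttttag
RBM3: aagcatcttattTtatagtatatca
ELF1: ttagattactttTtcaactgtaaat
RUBCNL: tgcagaatagctCtccagaccccca
SRSF1: tcgagtccgcgcTtttcgtcaccgc
CXCR4: aaacttcagtttGttggctgcggca
CHST15: gaaatctggcatTttttaaagtttg

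The positions of JCHAIN (chr4:70656421-70656445, minus strand) and EIF3B (chr7:2360814-2360838, plus strand) lie in the coding sequence (CDS). They held 67 and 44 DoHH-2 counts, against 0 and 1 in GM01953. The 6 windows from HMGB1 to ELF1 lie in 3′ UTRs. Among them are EIF4A3 (chr17:80135305-80135329, minus strand), NUCB2 (chr11:17331458-17331482, plus strand), RBM3 (chrX:48577542-48577566, plus strand) and ELF1 (chr13:40932251-40932275, minus strand). The HMGB1 position (chr13:30461151-30461175, minus strand) held 61 DoHH-2 counts and 5 GM01953 counts, and TOP2B (chr3:25598117-25598141, minus strand) held 32 and 0. The last 4 windows lie in 5′ UTRs, where RUBCNL (chr13:46372578-46372602, minus strand) had 22 counts and CXCR4 (chr2:136118132-136118156, minus strand) had 19, both with 0 in GM01953. SRSF1 (chr17:58007139-58007163, minus strand) and CHST15 (chr10:124046700-124046724, minus strand), which encodes a sulfotransferase, had 20 and 19. NUCB2 encodes a calcium-binding protein and RBM3 an RNA-binding protein induced by cold. A T stood at the position in 9 of the 12 windows, and 10 of the 12 positions had no count in GM01953. The members were selected for low GM01953 counts, and the GM01953 table holds far fewer counts. A count of 0 at a single base therefore does not show a site bound only in DoHH-2. Position numbers were read as counted from 0, because the interval starts in the study's list of sites match deposited positions in that way. A shift of 1 base was not settled by the bases themselves, since U was at least as frequent at the next base.

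U was also the commonest base over all 51323 DoHH-2 positions of the members, where 46.4% (46.0–46.9) had a U. In the other 1711 eligible genes it was 43.8% (43.7–43.9). Within a region of the gene the difference was somewhat smaller. It was 37.1% against 35.4% in the CDS, 56.1% against 54.2% in the 3′ UTR and 53.8% against 52.6% in introns. In the 5′ UTR 30.5% (29.0–32.0) had a U, against 28.0% (27.6–28.5) in the other genes, and there G was the commonest base, with 33.8% in the members. The base after the position was a U in 48.7% of the members' positions and in 47.0% of the others'. The GC content within 15 nt of the position had a mean of 42.7% in the members and 45.0% in the other genes. In GM01953, 46.5% (43.1–49.9) of the members' 807 positions had a U, against 41.2% (40.7–41.8) in the other genes. The mean GC content there was 44.9% in the members and 49.2% in the others. Over all regions together the members' positions thus lay in somewhat more U-rich and less GC-rich RNA in both lines. The spread between replicates behind these shares is unknown.

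The pooled table of DoHH-2 held 2033156 counts and that of GM01953 held 167197, so the depth ratio was 12.2. A single count was worth 5.98 CPM in GM01953 and 0.492 in DoHH-2, so GM01953 sets the precision of every ratio. Of the 6 B-cell markers examined, 5 had counts in DoHH-2. PAX5 had 554 counts in DoHH-2 and 58 in GM01953, CD79B 99 and 7, and CD79A 71 and 43. MS4A1, which encodes CD20, had 13 against 152 in GM01953, and CD22 had 0 (which allows up to 1.48 CPM) and 27. Of 9 T-cell, myeloid and erythroid markers, 8 had 0 counts in both lines. For EIF4B mRNA itself the counts were 165 and 17, a ratio of rates of 0.798 (0.484–1.40). ACTB and GAPDH, which encode actin and a glycolytic enzyme, had ratios of 0.495 (0.464–0.529) and 0.620 (0.526–0.734).

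Together the members held 74564 counts in DoHH-2, or 3.67% (3.64–3.69) of all counts, and 1245 in GM01953, or 0.745% (0.705–0.787). The ratio of these shares was 4.93 (4.66–5.21). Single members had between 200 and 4002 counts in DoHH-2, with a median of 328, against a median of 317 in the other eligible genes. In GM01953 they had between 0 and 91 counts, with a median of 5, against 22 in the other genes. The low GM01953 counts follow from the selection. There were 8 members with 0 counts in GM01953, 78 with 1 to 5, 54 with 6 to 20 and 10 with more.

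**Figure D1:**
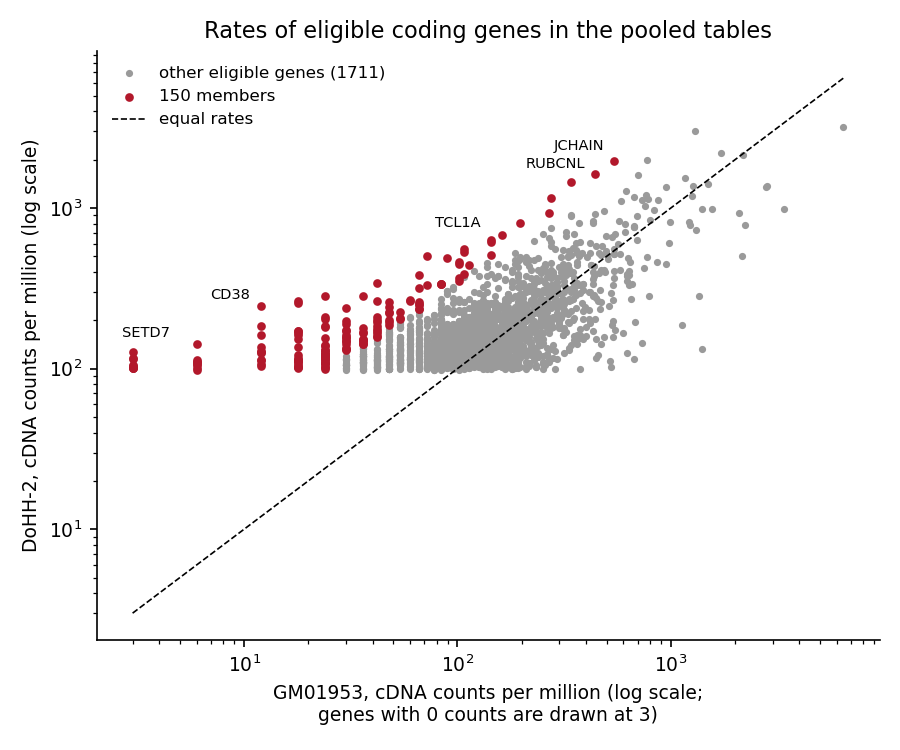
Rate of each eligible gene in DoHH-2 (y axis) against GM01953 (x axis), in CPM on log scales, with the 150 members in red, the 1711 other eligible genes in grey and equal rates on the dashed line. The members form the upper left edge of the cloud, from the 8 genes with 0 GM01953 counts (drawn at 3) to JCHAIN at 1968 and 544 CPM.

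The ratio, with 10 CPM added to both rates, ran from 13.7 for SETD7 to 3.24, with a median of 4.14. The median over all eligible genes was 1.35. The order near the edge rests on single counts. The last members were RRP1B (717 counts in DoHH-2 and 17 in GM01953), MZB1 (480 and 11), RNF216 (480 and 11), SEC62 (322 and 7) and KIF22 (203 and 4). The first genes outside were QSOX2 (242 and 5), ERC1 (753 and 18), RUNX1 (828 and 20), IGF1R (201 and 4) and ZNF12 (201 and 4). QSOX2 had a ratio of 3.23, so the genes on both sides of the limit did not differ beyond counting error.

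The 8 members with 0 counts in GM01953 were all among the 9 highest, where a rate of 0 cannot be told from a low rate at this depth. SETD7, a lysine methyltransferase, had 259 counts in DoHH-2, a rate 7.10 times the 17.9 CPM taken as the limit for a count of 0 in GM01953. SETDB1, which methylates histone H3 in silent chromatin, had 238 counts and a rate 6.52 times this limit. ADM, the precursor of the peptide hormone adrenomedullin, had 234 counts and a rate 6.41 times the limit. Further members of this kind were the chromatin-binding protein gene ARID5B with 215 counts, the mitochondrial ribosomal protein gene MRPS31 with 212, RIMS3, which acts in vesicle release, with 206 and PEX19, which brings proteins to the peroxisome, with 205. Their rates were between 5.62 and 5.89 times the limit. Such a limit holds for a gene fixed beforehand, whereas these genes were chosen for their low GM01953 counts. The counting error of DoHH-2 is not included either, so these figures are not firm lower bounds. Of the PEX19 counts, 98.5% lie at positions that are also listed under the overlapping read-through gene RP11-574F21.3, itself a member with 508 counts in DoHH-2 and 11 in GM01953.

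The next members had 1 to 7 counts in GM01953. The highest of them was CD38, an ectoenzyme on the surface of germinal centre and plasma cells, with 501 counts (246 CPM) in DoHH-2 and 2 in GM01953. Its ratio of rates was 20.6, with a counting interval from 5.67 to 171. AFF3, which encodes a nuclear protein of lymphoid cells, had 539 counts and 3 (14.8, 5.03–71.9). BZW2, which encodes a relative of the initiation factor eIF5, had 524 and 3 (14.4, 4.89–69.9). STK39, a kinase of the ion transport response, had 577 and 4 (11.9, 4.61–43.7), and the zinc finger gene ZNF107 had 696 and 7 (8.18, 3.95–20.4). The intervals were wide, with lower bounds between 3.95 and 5.67. These bounds hold for a gene fixed beforehand, whereas these genes were chosen for a high ratio, so they are not firm.

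The rest of the 25 highest members had 200 to 377 counts in DoHH-2 and 1 to 3 in GM01953. The surface protease gene ST14 had 289 and 1 (23.8, 4.23–942), and BRD9, a bromodomain subunit of a chromatin remodeller, had 377 and 2 (15.5, 4.26–128). C17orf62, named CYBC1 in GENCODE 44, had 331 and 2 (13.6, 3.74–113), and the corepressor gene CTBP2 had 231 and 1 (19.0, 3.38–754). KCNQ5, a potassium channel gene, had 350 and 3 (9.59, 3.26–46.8). The centrosome genes CEP250 (222 and 1) and CEP152 (277 and 2), the transporter gene SLC12A7 (223 and 1), R3HDM2 (218 and 1), the translation termination factor gene GSPT2 (215 and 1), the phosphatase subunit gene PPP2R1B (204 and 1) and LSS, an enzyme of cholesterol synthesis (200 and 1), complete this group. GSPT2 is an intronless copy of GSPT1, so its counts are uncertain where reads fit both. Of the 25 highest members, only CD38 belongs to a gene list used here.

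**Figure D2:**
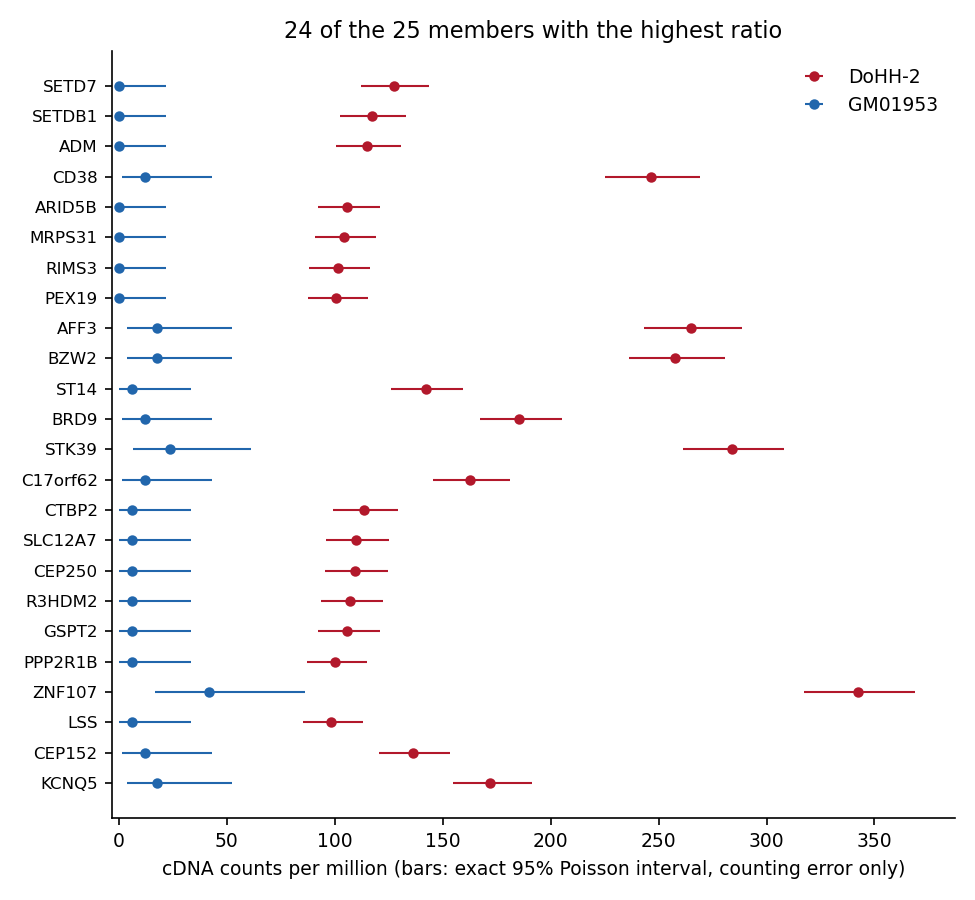
Rates in CPM of 24 of the 25 members with the highest ratio, in DoHH-2 (red) and GM01953 (blue), with exact 95% Poisson intervals that cover counting error only. DoHH-2 rates lie between 98.4 CPM for LSS and 342 CPM for ZNF107, and 7 of the 24 genes have 0 counts in GM01953. The genes were selected on this difference, so the gap between the lines is a description.

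The members with the most counts carry the most precise ratios. JCHAIN encodes the joining chain of secreted IgM and IgA, and had 4002 counts in DoHH-2 and 91 in GM01953 (ratio of rates 3.62, 2.94–4.50). RUBCNL, which acts in autophagosome maturation, had 3298 and 74 (3.67, 2.91–4.68). TOP2B, a DNA topoisomerase, had 2942 and 57 (4.24, 3.27–5.62). The ETS transcription factor gene ELF1 had 2364 and 46 (4.23, 3.16–5.79), and the mismatch repair gene MSH6 had 1891 and 45 (3.46, 2.57–4.75). HMGB1, an abundant chromatin protein that bends DNA, had 1651 and 33 (4.11, 2.92–6.00), with the reserve that it has many processed copies in the genome. EIF3B, a core subunit of initiation factor eIF3, had 1376 and 27 (4.19, 2.87–6.38). TCL1A, a coactivator of the kinase AKT, had 1291 and 24 (4.42, 2.96–6.93), and the chemokine receptor gene CXCR4 had 1247 and 24 (4.27, 2.86–6.69). TERT, the catalytic subunit of telomerase, had 1130 and 18 (5.16, 3.25–8.74). These 10 ratios lay between 3.46 and 5.16 and their intervals overlapped, so their order is not resolved.

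Gene lists from general knowledge were set against the members, and 24 members fell in a list while 126 fell in none. The lists were chosen with earlier results of these data known. A high share of members is therefore a description that is not free of this choice. Germinal centre B-cell genes had the highest share, with 5 members among 14 eligible genes (35.7%, beside 8.06% over all eligible genes) and a median ratio of 2.03, beside 1.35. The members were CD38, MME, TCL1A, CXCR4 and BACH2. MME, which encodes the surface peptidase CD10, had 350 counts against 3 in GM01953, and the transcriptional repressor gene BACH2 had 789 and 18. The list did not move as a whole, since BCL6, the master repressor of the germinal centre, had 494 and 39 (ratio 1.04), LRMP had 815 and 82 (0.821) and MARCKSL1 had 394 and 55 (0.601). A ratio of 2 or more was found for 7 of the 14, beside 25.1% over all eligible genes.

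Transcription factors of lymphoid cells had 3 members among 23 eligible genes, beside 8.06% over all, and a median ratio of 1.87, beside 1.35. A ratio of 2 or more was found for 10 of the 23, beside 25.1%. TCF4, a bHLH factor that binds E-boxes, had 1020 counts against 12, which gave a ratio of rates of 6.99 (3.98–13.6). ELF1 is given above, and LEF1, a partner of β-catenin in WNT signalling, had 337 and 7. The other lists of B-cell biology held no member. Pan B-cell markers had 3 eligible genes and a median ratio of 0.791, B-cell receptor signalling had 7 and 0.997, and EBV-induced and NF-κB activation genes had 4 and 0.877. Only a few genes of these lists were deep enough to be eligible, so their shares say little. Further members of immune function were picked after their values were seen. IL7R, the interleukin 7 receptor, had 279 and 3, RAG2, which cuts the antigen receptor genes, had 204 and 3, and MZB1, a chaperone of immunoglobulin assembly, had 480 and 11.

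Translation factors had a share of members near that of all eligible genes. Ribosomal protein genes were left out by the rule. Among 34 eligible translation initiation and elongation factors there were 3 members (8.82%), and the median ratio was 1.40. EIF4A3, the eIF4A relative in the exon junction complex, had 911 counts in DoHH-2 and 17 in GM01953 (4.41, 2.74–7.60). EIF2S1, the alpha subunit of eIF2, had 313 and 6 (4.29, 1.95–11.8), and EIF3B is given above. EIF4A1, the helicase that eIF4B stimulates, was not a member, with 771 and 26 (ratio 2.35). Nucleolus and ribosome assembly genes had 2 members of 23 (8.70%), the RNA helicase gene DDX18 (404 and 5) and RRP1B (717 and 17), with a median ratio of 1.76. In this list 9 of 23 had a ratio of 2 or more, beside 25.1%.

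The remaining lists had shares of members below that of all eligible genes, except apoptosis regulators with 1 of 6, BCL2L11, which encodes the death-promoting protein BIM (365 and 6). Chaperones had 2 of 30 (6.67%), the chaperonin genes CCT2 (373 and 4) and HSPE1 (307 and 6). Chromatin regulators had 3 of 55 (5.45%), the histone demethylase gene KDM5A (936 and 17), the corepressor gene BCOR (343 and 6) and the Polycomb-associated gene ASXL2 (288 and 5). Splicing factors had 2 of 55 (3.64%), SRSF1 (898 and 19) and HNRNPR (1032 and 24). The lists of DNA replication, mitosis and metabolism had 1 member each, namely E2F2, a transcription factor of S phase entry (360 and 7), the spindle gene ASPM (315 and 5) and SHMT2, a mitochondrial enzyme of one-carbon metabolism (527 and 8). Genes of actin, adhesion and migration had 0 members among 25, with a median ratio of 0.717, and 9 of them had a ratio of 0.5 or less, beside 3.6% over all eligible genes. Ubiquitin ligases and the proteasome had 0 of 27.

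Where the counts lie along the gene was not used to choose the members. In DoHH-2, 38.5% (38.1–38.8) of the members' counts lay in the CDS, 28.9% (28.6–29.2) in the 3′ UTR, 9.46% (9.25–9.67) in the 5′ UTR, 3.67% in non-coding exons and 19.3% (19.0–19.6) in introns. In the other eligible genes these shares were 40.3%, 28.5%, 11.4%, 3.56% and 16.0%. The share in introns had a median of 17.4% per member and 12.3% per other gene. At positions with an FDR below 0.05 (the false discovery rate that the authors computed within each gene) this difference was nearly gone, with 6.93% (6.67–7.20) of the members' counts and 6.71% (6.63–6.78) of the others' in introns. The quartiles were wide in both sets, from 7.15% to 32.1% in the members and from 4.69% to 25.6% in the others. Within 50 nt of the start codon lay 6.77% (6.56–6.98) of the members' counts on the canonical mRNA, against 8.58% (8.51–8.65), and within 50 nt of the stop codon 4.42% (4.25–4.59) against 4.93% (4.88–4.99).

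**Figure D3:**
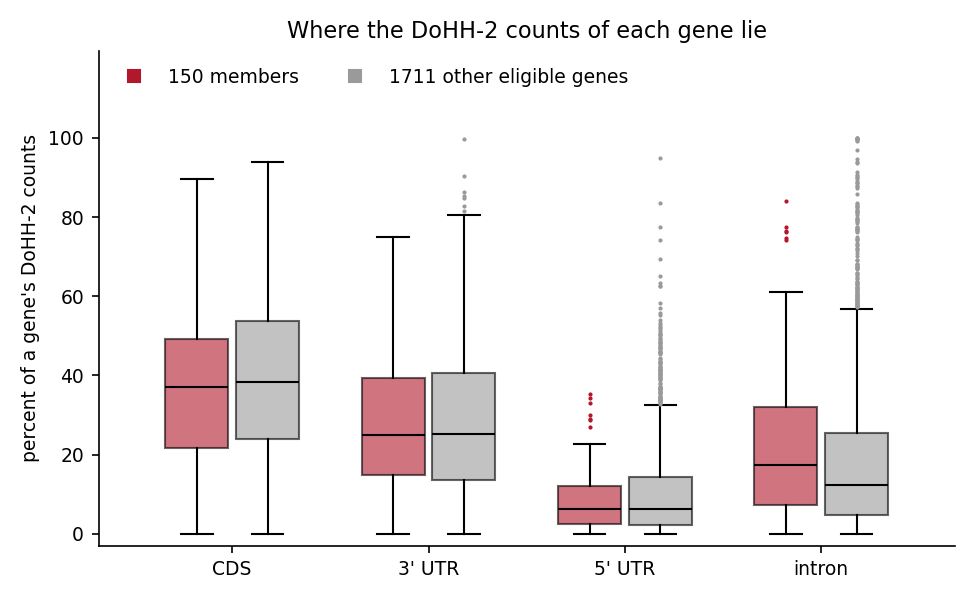
Percent of each gene's DoHH-2 counts in the CDS, 3′ UTR, 5′ UTR and introns, for the 150 members (red) and the 1711 other eligible genes (grey). Boxes show the quartiles and median, and whiskers reach 1.5 times the box height or the last gene. The boxes overlap in every region, and the median in introns is 17.4% for the members and 12.3% for the others.

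In GM01953 the 1245 counts of the members had a smaller share in the 3′ UTR and larger shares in the CDS and 5′ UTR than in DoHH-2, with 44.4% (41.7–47.2) in the CDS, 21.0% (18.9–23.4) in the 3′ UTR, 12.9% (11.1–14.8) in the 5′ UTR and 17.3% (15.3–19.5) in introns. The ratio of rates over all members was 4.27 (3.92–4.65) in the CDS, 6.77 (5.99–7.67) in the 3′ UTR, 3.63 (3.10–4.27) in the 5′ UTR and 5.50 (4.81–6.32) in introns. The other eligible genes had the same order between the exonic regions, with 1.06 (1.04–1.07) in the CDS, between 1.47 and 1.53 in the 3′ UTR and 0.711 (0.697–0.726) in the 5′ UTR. A higher ratio in the 3′ UTR than in the 5′ UTR was therefore not particular to the members. Of the 807 GM01953 positions in members, 51.3% (47.9–54.7) were also cross-linked in DoHH-2, against 42.8% (42.2–43.4) of those in other genes. The members were selected for many DoHH-2 counts per GM01953 count. They had a median of 258.5 DoHH-2 positions per gene, against 236, so this difference is not free of the selection.

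The members differed widely among themselves in where they were cross-linked. At least 50% of the DoHH-2 counts lay in the CDS for 36 members, in the 3′ UTR for 20, in introns for 16 and in the 5′ UTR for 0. Among the 1711 other eligible genes these numbers were 511 (29.9%, beside 24% of the members), 222, 149 (8.71%, beside 10.7%) and 23 (1.34%). Among the highest shares in the CDS were 85.0% (79.8–89.1) for ATP5H (ATP5PD in GENCODE 44), a subunit of ATP synthase, and 75.5% for WDR6. POLD2, a subunit of DNA polymerase delta, had 72.8%, and ASPM had 68.9%. In the 3′ UTR the highest share was 74.9% (70.5–78.9) for PTPN11, which encodes the phosphatase SHP2, followed by 68.9% for BCLAF1, 67.6% for the kinase gene TAOK1, 66.5% for SEC62, a part of the protein import machinery of the endoplasmic reticulum, and 66.2% for CDC42SE1.

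The 5′ UTR held up to 35.4% (30.9–40.1) of the counts of a member, for the mitochondrial protein gene HAX1, with 34.3% for SNRPD3, a core protein of spliceosomal snRNPs, and 33.0% for AIMP2, a scaffold of tRNA synthetases. HSPE1 had 30.0% and LEF1 had 29.1%. Introns held 84.0% (79.8–87.5) of the counts of KCNQ5, 77.6% of XXYLT1, 76.5% of the read-through gene RP11-159D12.5 and 76.2% (73.6–78.6) of TERT. TERT thus had 861 of its 1130 DoHH-2 counts, and 12 of its 18 GM01953 counts, outside the mature mRNA. P2RX5-TAX1BP3, also a read-through gene, had 74.8%. The intronic share of read-through genes includes positions in exons of their neighbours. For P2RX5-TAX1BP3, 90.4% of the counts are also listed under the member P2RX5, and for RP11-159D12.5, 76.9% are also listed under the member SRSF1. In all, 9 members shared more than 50% of their counts with another name, so a few members are not independent of each other.

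**Figure D4:**
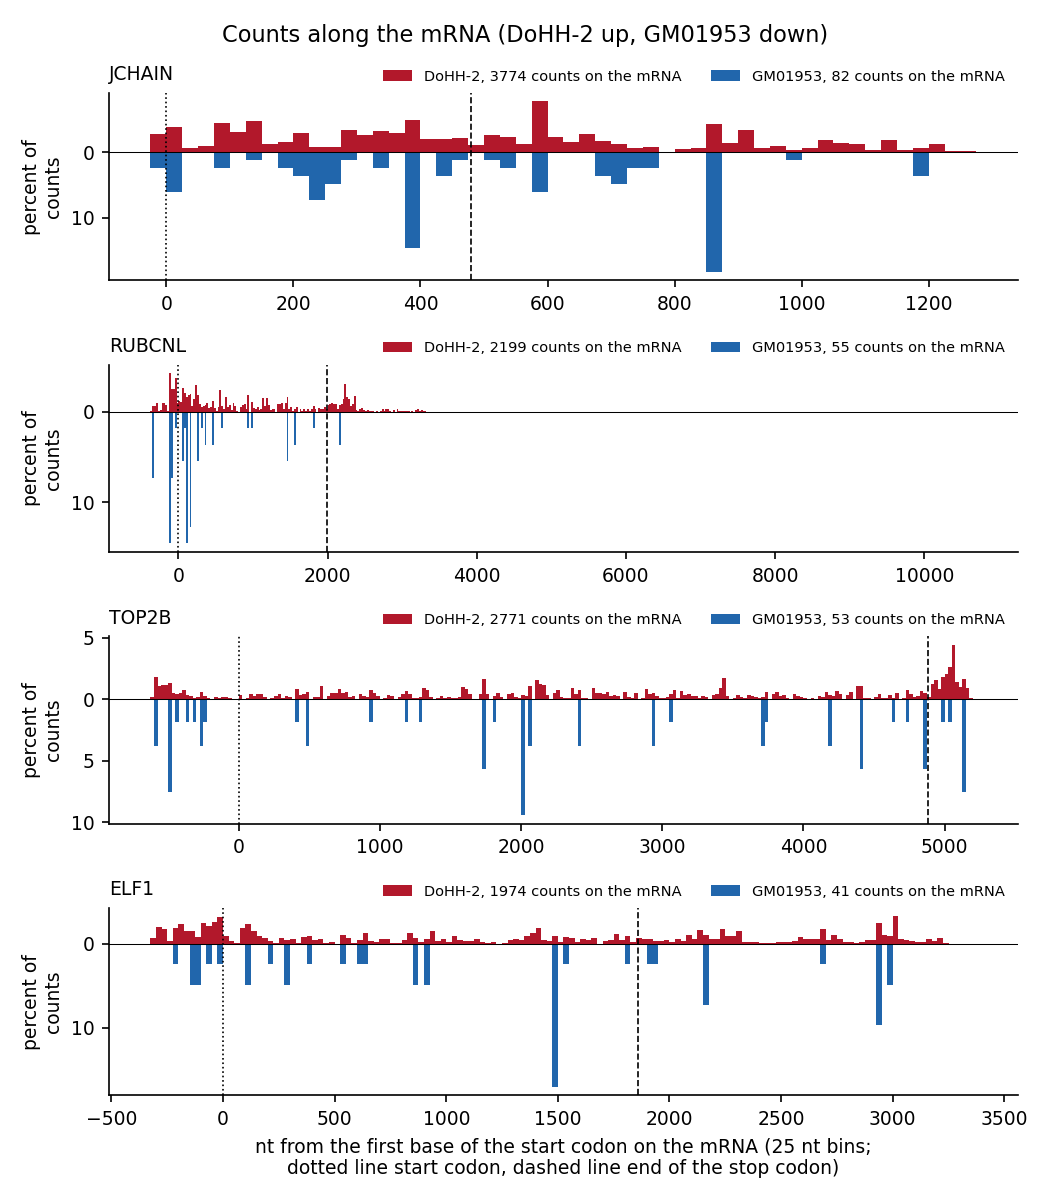
Cross-link counts along the canonical mRNA of JCHAIN, RUBCNL, TOP2B and ELF1, in bins of 25 nt from the start codon (x axis, nt), as a percent of the counts on the mRNA, for DoHH-2 (red, upwards) and GM01953 (blue, downwards). DoHH-2 counts are found in the 5′ UTR, CDS and 3′ UTR of all 4 mRNAs, but the last RUBCNL bin with a count starts at 3300 nt of an annotated mRNA that reaches 10693 nt. The 41 to 82 GM01953 counts per mRNA leave most bins empty.

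Counts along the most abundant members were spread rather than gathered at a few bases. JCHAIN had 46.2% of its DoHH-2 counts in the CDS and 45.6% in the 3′ UTR, and its GM01953 counts were split likewise, with 42 and 38 of 91. For TOP2B 64.6% of the counts lay in the CDS, and for HMGB1 54.2% lay in the 3′ UTR. RUBCNL and ELF1 had 19.2% and 21.3% in the 5′ UTR. The single highest position held between 0.643% and 6.96% of the counts of a member, with a median of 2.65%, and over all eligible genes the median was 2.98%. Of the members' positions, 81.1% had a single count, against 80.2% in the others. The highest position was in the 3′ UTR for 51 members, the CDS for 43, an intron for 35 and the 5′ UTR for 20. As shares these were 34%, 28.7%, 23.3% and 13.3%, beside 29.7%, 37.2%, 16.3% and 13.4% in the other eligible genes. A GM01953 count at the highest position was found for 5 members. The share in the other eligible genes was not taken, and the selection for low GM01953 counts favours a small number. It is therefore not read as a trait of the members.

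The false discovery rate (FDR) of each position was made by the authors with iCount. Positions with an FDR below 0.05 held 48.2% (47.9–48.6) of the members' counts in DoHH-2 and 51.5% (51.4–51.6) of the others'. The median per gene was 30.4% for the members and 39.8% for the others. JCHAIN had 96.5% of its counts at such positions, HSPE1 89.3%, HMGB1 85.9% and ATP5H 85.5%, while TERT had 14.3% and ASPM 3.81%. There were 2 members with no such position, GSPT2 among them, so their place among the members rests on counts that were not called as binding sites. More than 20 counts at these positions were found for 142 members (94.7%) and for 1675 of the 1711 others (97.9%).

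The members lay on 23 chromosomes, in unequal numbers. On chromosome 13, 10 of 36 eligible genes were members (27.8%, beside 8.06% over all), and 17 had a ratio of 2 or more (47.2%, beside 25.1%). Among the 10 members were HMGB1, EXOSC8, SUPT20H, MRPS31, ELF1, DGKH, TSC22D1, ZC3H13 and RUBCNL. In the span from the first to the last of the 10, 10 of 29 eligible genes were members and the median ratio was 2.35, which the choice of its ends raises, and the 7 eligible genes outside it, which hold no member by definition, had a median ratio of 0.733. The span was not uniform, since LCP1, an actin-bundling gene within it that was chosen after its values were seen, had a ratio of 0.833, from 1668 counts in DoHH-2 and 165 in GM01953.

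Chromosome 7 had 15 members among 113 eligible genes (13.3%) and a median ratio of 1.51. They include EIF3B, AIMP2, BZW2 and POLD2. Chromosome 1 had 18 members among 214 eligible genes (8.41%), close to the share over all, including SETDB1, HAX1 and PEX19. On chromosome 19, 1 of 96 eligible genes was a member, DDX39A, which encodes an RNA helicase of mRNA export and had 337 counts in DoHH-2 and 3 in GM01953. Neighbouring genes are not independent, and the shares were not tested.

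**Figure D5:**
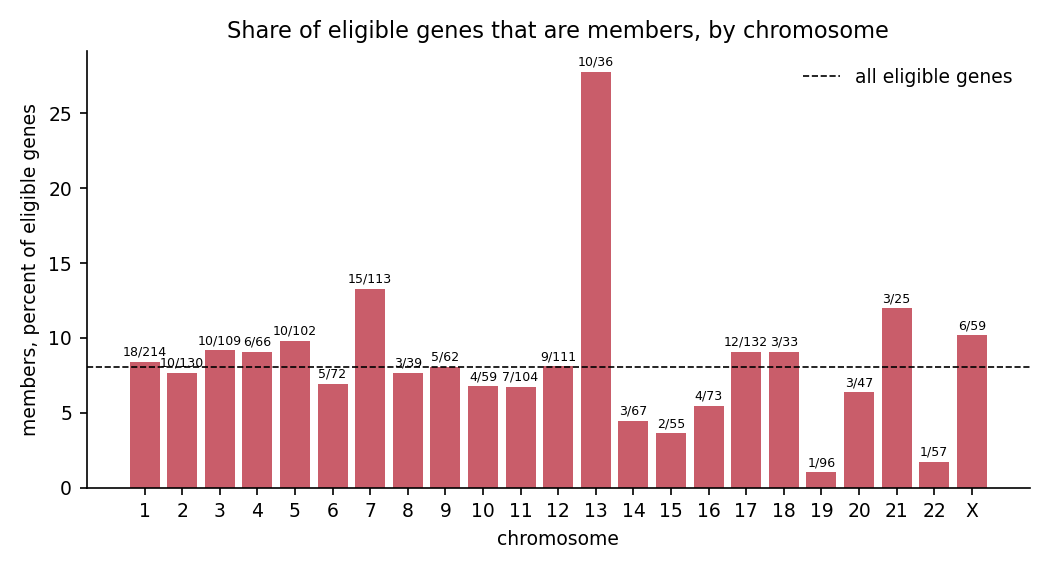
Members as a percent of the eligible genes on each chromosome (bars, with the numbers above), beside the share over all eligible genes (dashed line, 8.06%). Chromosome 13 stands at 27.8% (10 of 36) and chromosome 19 at 1.04% (1 of 96).

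The members' transcripts were of ordinary size. Over the 148 members with a canonical coding transcript, the median length of the 5′ UTR was 129.5 nt, against 144 nt in the other eligible genes. The CDS had medians of 1873.5 nt and 1692 nt. The 3′ UTR had medians of 1701.5 nt and 1418.5 nt, with quartiles from 570.75 to 3648.5 nt in the members and from 549.75 to 2876 nt in the others.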

How the data were processed

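Cross-linked RNA of DoHH-2 (4 replicates) and GM01953 (2 replicates) was analysed by iCLIP. PCR duplicates were removed by the authors with BBMap, reads were demultiplexed with Je and mapped to GRCh38 with HISAT2, and replicates were pooled. iCount then gave whole-number cDNA counts per position, deposited without normalization. The deposited FDR (an adjusted p-value per position) was made by the authors with iCount. Versions are not given in the sources used here.

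Here, counts were summed per gene over unique positions in Python 3.11.15 with pandas 2.3.3 and divided by the table total and multiplied by 1000000. Coding genes were taken by gene identifier from GENCODE release 44, in which 98.8% of the identifiers in the DoHH-2 table were found. Where transcripts differed, a position took its region from all coding transcripts of the gene. Shares have Wilson and ratios of rates exact 95% intervals (scipy 1.17.1), which cover counting error only. Where a limit is given for a count of 0, it was set to 3 counts. No test was made, because each line has 1 pooled table. The steps were tested on simulated data. Alternatives included other added constants, depth minimums, position sets and region rules.

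The members and gene lists were chosen with earlier results of these data known. Named genes are the 25 members with the highest ratio, the 10 with the most DoHH-2 counts, members in a list, the 5 genes on each side of the limit, the 5 members with the highest share in each of 4 regions, EIF4B, ACTB and GAPDH. Cell type markers were read as well. Some genes and the sequences of chromosome 8 are not reported here. Other names were picked after their values were seen.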

Additional observations from a re-analysis of the deposited data

How the results depend on the processing

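No paired analysis was possible because each cell line has 1 pooled table, and for the same reason no replicate could be left out. Of the 150 members, 141 and 126 stayed among the 150 highest with 1 or 50 CPM added, 147 with another denominator, 139 with positions listed under a single name and 118 without each gene's highest position. Fewer stayed among the 150 highest with positions of FDR below 0.05 (37), each position counted once (87), at least 100 counts at 10 positions (51) and at least 400 counts at 40 positions (54). By construction 40, 110, 150 and 54 members were still eligible in these 4 settings. With 100 counts at 10 positions, 4110 genes were eligible, and genes with fewer counts took the other places. Exons of coding transcripts kept 100 of 100 eligible. Of the alternatives chosen after seeing the data, matching names in place of identifiers kept 142 and leaving out read-through and clone names kept 147.

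The ratio of the members' summed rates, 4.93, was 4.54 with an FDR below 0.05, 4.23 with each position counted once and 6.57 without the highest positions. For the last value, each gene's highest position was left out in each line separately, with the denominators unchanged. The rise therefore means that a larger share of the members' GM01953 counts than of their DoHH-2 counts was removed. The added constant does not enter the ratio of summed rates. The CDS share was 43.8% with an FDR below 0.05, 36.8% with positions counted once, 39.6% with single names and 38.1% on the canonical transcript. The 3′ UTR share was 32.9% with an FDR below 0.05 and 27.3% with positions counted once. The 5′ UTR share was 14.4%, 7.29%, 9.70% and 7.78% in the 4 settings named for the CDS, and the intron share was 6.93%, 23.9%, 18.3% and 24.9%. An FDR below 0.01 left 42.3% of the members' counts. The 8 members with 0 GM01953 counts became 20 in exons, 15 with single names and 61 with an FDR below 0.05. Beyond the construction named for the highest positions, the cause of these shifts was not tested. The depth of GM01953 limits every single ratio.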
